A study of Mus musculus with 2 samples.

Results

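MicroRNA genes known from blood cells were followed in the intestine of mouse embryos: the erythroid genes Mir144, Mir451a and Mir486, and the leukocyte genes Mir142b, Mir223 and Mir150. They were chosen by name, through their Ensembl identifiers, and make up 6 of the 1973 microRNA genes in the tables. The tissue came from B6NCrl embryos at 14.5 days of development. Small RNA with inserts under 30 bases was sequenced in 2 libraries of 1 group, biological replicates 1 and 2, with no treatment, mutation or second condition. Each sample is described as a single pup's intestine, yet its sex is given as pooled male and female. Replicate 2 was collected on day 15 of the month and replicate 1 on day 17, so collection day and replicate cannot be told apart.

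MicroRNAs are cut from hairpin precursors and guide Argonaute proteins to messenger RNAs through bases 2 to 8, the seed. Mir144 and Mir451a come from 1 precursor transcript that the factor GATA1 switches on in red cell precursors. miR-451 is unusual in that Argonaute 2, not Dicer, cuts its hairpin. Mir486 lies within Ank1, which encodes a protein of the red cell membrane skeleton. miR-142 is made in most blood lineages, miR-223 mainly in granulocytes and other myeloid cells, and miR-150 in mature lymphocytes. In whole tissue, fewer cells of a type and less RNA per cell cannot be told apart.

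The sequences below are those of Mir144, Mir451a, Mir142, Mir142b and Mir223, from RefSeq (GRCm38.p6), with the seed in capitals. They show that the erythroid and myeloid microRNAs have separate seeds, and that the miR-142a and miR-142b sequences come from opposite strands of 1 place.
miR-144-3p: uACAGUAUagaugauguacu
miR-144-5p: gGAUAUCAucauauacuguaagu
miR-451a: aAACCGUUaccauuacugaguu
miR-142a-3p: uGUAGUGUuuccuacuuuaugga
miR-142a-5p: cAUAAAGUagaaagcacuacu
miR-142b: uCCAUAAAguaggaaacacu
miR-223-3p: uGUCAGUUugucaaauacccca
miR-223-5p: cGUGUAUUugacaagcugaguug

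None of these 8 seeds was shared with another of the 1679 mature names in the RefSeq table. Over bases 2 to 7, compared after no full seed was found to be shared, miR-144-3p matched miR-101a-3p and miR-223-3p matched miR-344f-5p, whose gene Mir344f had 1 read in replicate 2 and 19 in replicate 1. Within the first 8 bases, counted from the 5′ end of miR-144-3p, miR-101a-3p differed only by U8C. An entry for 5 of the 6 genes was found in the table; Mir486 had none.

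The hairpins of Mir451a and Mir142 show how reads could fall. In the Mir451a hairpin (chromosome 11, 78073170 to 78073241, plus strand) the mature sequence, in capitals, runs around the loop. In the Mir142 hairpin (chromosome 11, 87756864 to 87756927, plus strand) the capitals mark the 5p and 3p arms.
Mir451a hairpin: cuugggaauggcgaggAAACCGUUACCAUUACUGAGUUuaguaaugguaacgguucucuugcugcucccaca
Mir142 hairpin: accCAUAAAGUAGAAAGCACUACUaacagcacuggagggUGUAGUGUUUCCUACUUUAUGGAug

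Values are CPM, that is reads on a gene's own strand over the total of such reads on all genes and scaled to a library of 1000000. That total was 3903472 in replicate 2 and 15090126 in replicate 1, so replicate 1 is the more precise. With 0 reads, a level of 0.769 CPM in replicate 2 or of 0.199 CPM in replicate 1 could be missed, taking 3 counts as the limit. For Mir142b the reads on both strands were taken, although the total holds none of them, since all lay on the opposite strand. Adapter ligation and PCR do not treat all small RNAs alike, so levels of different microRNAs are compared as counts and not as molecules. Means are given with the SD of the 2 libraries (n = 2), and intervals of a single library are 95% Wilson intervals that cover counting error only.

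Together the 6 genes made up a small part of the microRNAs of the embryonic intestine, and leukocyte genes outweighed erythroid ones. Relative to the own-strand total, their sum reached 0.160% in replicate 2 (0.156 to 0.164%), against 0.119% in replicate 1 (0.117 to 0.120%). Leukocyte genes held 0.119% in replicate 2 and 0.0928% in replicate 1. Erythroid genes held 0.0409% in replicate 2 and 0.0258% in replicate 1. On the log2 scale, erythroid over leukocyte reads gave -1.54 in replicate 2 (exact 95% counting interval -1.62 to -1.46), against -1.84 in replicate 1 (-1.90 to -1.79). Its mean of -1.69 was larger than the gap of 0.31 between the libraries. With reads on the annotated strand only, which leaves no read for Mir142b, the mean log2 ratio was -0.43 and its gap was 0.35. The direction was the same in both libraries either way. The erythroid sum holds only the reads assigned to Mir486, whose level is uncertain because multiply aligned reads were left without a gene.

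**Figure D1:**
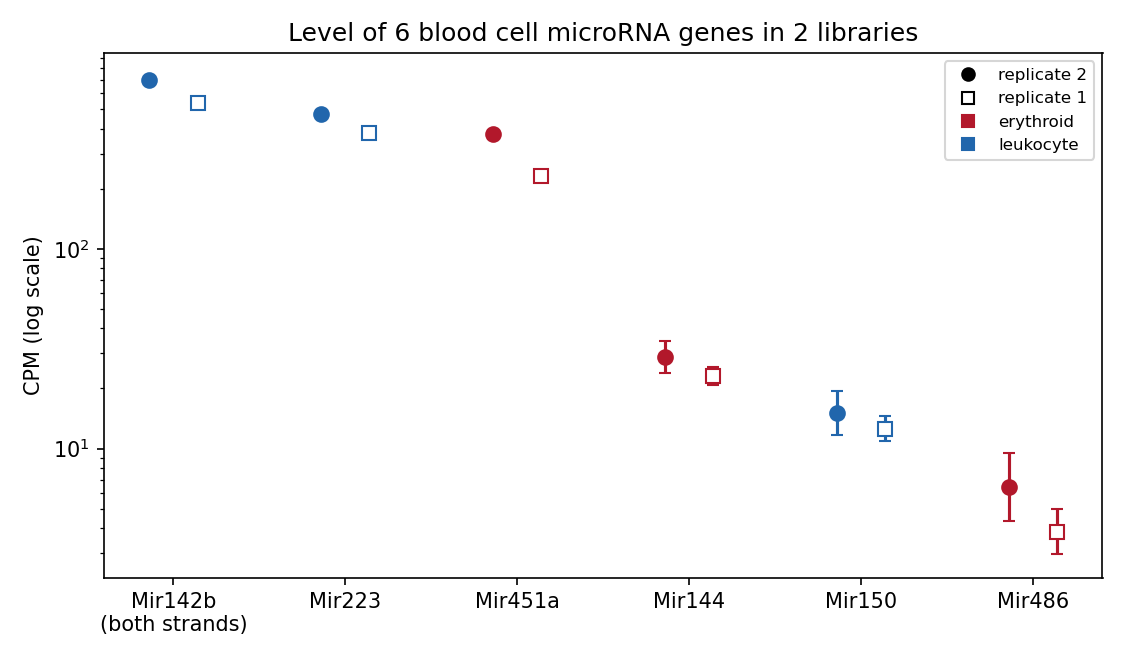
Level of each gene in CPM on a log scale in replicate 2 (filled circles) and replicate 1 (open squares), with 95% Wilson intervals. Mir142b (both strands), Mir223 and Mir451a lie between 231 and 699 CPM, and Mir144, Mir150 and Mir486 below 29 CPM.

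The reads assigned to the erythroid genes were mostly those of Mir451a. Mir451a (ENSMUSG00000070065.1), the most abundant microRNA of mature red cells, had 1459 reads or 374 CPM in replicate 2 (355 to 393 CPM) against 3492 reads or 231 CPM in replicate 1 (224 to 239 CPM). Its mean was 303 ± 101 CPM, rank 149 of the 364 detected genes, that is genes with at least 10 counts in both libraries. It held 91.4% of the assigned erythroid reads in replicate 2 and 89.6% in replicate 1. These shares depend on the level of Mir486, which is uncertain because multiply aligned reads were left without a gene.

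Mir144 (ENSMUSG00000065401.1; chromosome 11, 78073005 to 78073070, plus strand) lies 99 bases upstream of Mir451a and in no other annotated gene. Known to limit the antioxidant response of red cells, it had 112 reads or 28.7 CPM in replicate 2 and 349 reads or 23.1 CPM in replicate 1. Mir451a thus exceeded its neighbour 13.0-fold in replicate 2 (exact interval 10.7 to 15.9) and 10.01-fold in replicate 1 (8.96 to 11.2). The mean log2 ratio of 3.51 ± 0.27 was far larger than the gap of 0.38 between the libraries. Mir101a, whose miR-101a-3p shares bases 2 to 7 with miR-144-3p, had 91.5 CPM in replicate 2 against 92.3 CPM in replicate 1. It exceeded Mir144 3.19-fold in replicate 2 and 3.99-fold in replicate 1.

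Mir486 (ENSMUSG00000070084.3; chromosome 8, 23142555 to 23142682, plus strand, in an intron of Ank1) was the lowest of the 6. It had 25 reads or 6.40 CPM in replicate 2 (4.34 to 9.45 CPM) against 58 reads or 3.84 CPM in replicate 1 (2.97 to 4.97 CPM). Another microRNA gene, Mir3107, is annotated there on the minus strand. Reads that aligned to more than 1 place were left without a gene, and made up 26.6% of the table in replicate 2 and 26.5% in replicate 1. Whether reads of Mir486 were among them was not tested, so its level is uncertain.

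Of the leukocyte genes, the Mir142b row was the highest, and every one of its reads lay on the opposite strand. Mir142b (ENSMUSG00000065420.2; chromosome 11, 87756841 to 87756955) is annotated on the minus strand, within an intron of the plus-strand host transcript Mir142hg. Its row held 2730 reads in replicate 2 and 8096 in replicate 1 on the opposite strand, and 0 on its own strand in both. With 3 counts taken as the limit in each library, the opposite strand was at least 910-fold higher in replicate 2 and at least 2699-fold higher in replicate 1. These reads come from the strand of Mir142, which lies inside the Mir142b interval and has no row of its own.

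The reads equal 699 CPM in replicate 2 (674 to 726 CPM), against 537 CPM in replicate 1 (525 to 548 CPM), a mean of 618 ± 115 CPM at rank 121. The miR-142b sequence is the reverse complement of bases 4 to 23 of miR-142a-3p. It shares at most 10 bases in a row with miR-142a-5p in the same direction. Counts per gene do not tell the 5p and 3p arms apart.

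The other members showed few or no reads on the opposite strand. Mir451a, which faces Mir451b at the very same coordinates, had 0 of 1459 in replicate 2, which allows up to 0.206%, and 0 of 3492 in replicate 1, which allows up to 0.0859%. The longest stretch of the Mir451a hairpin that recurs in its own reverse complement is 16 bases, shorter than the 22-base mature sequence. Mir223 and Mir144 also had 0 in both libraries, and Mir150 had 0 of 59 in replicate 2 and 2 of 192 in replicate 1. Mir486 stood apart, with 5 of 30 reads on the opposite strand in replicate 2 (16.7%, interval 7.34 to 33.6%), against 13 of 71 in replicate 1 (18.3%, 11.02 to 28.8%). Over all genes the opposite strand held 3.10% of the reads in replicate 2 and 2.89% in replicate 1. At least 90% of the reads lay on the opposite strand in both libraries for 10 of 374 genes, or 2.67%, of which Mir142b was 1.

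**Figure D2:**
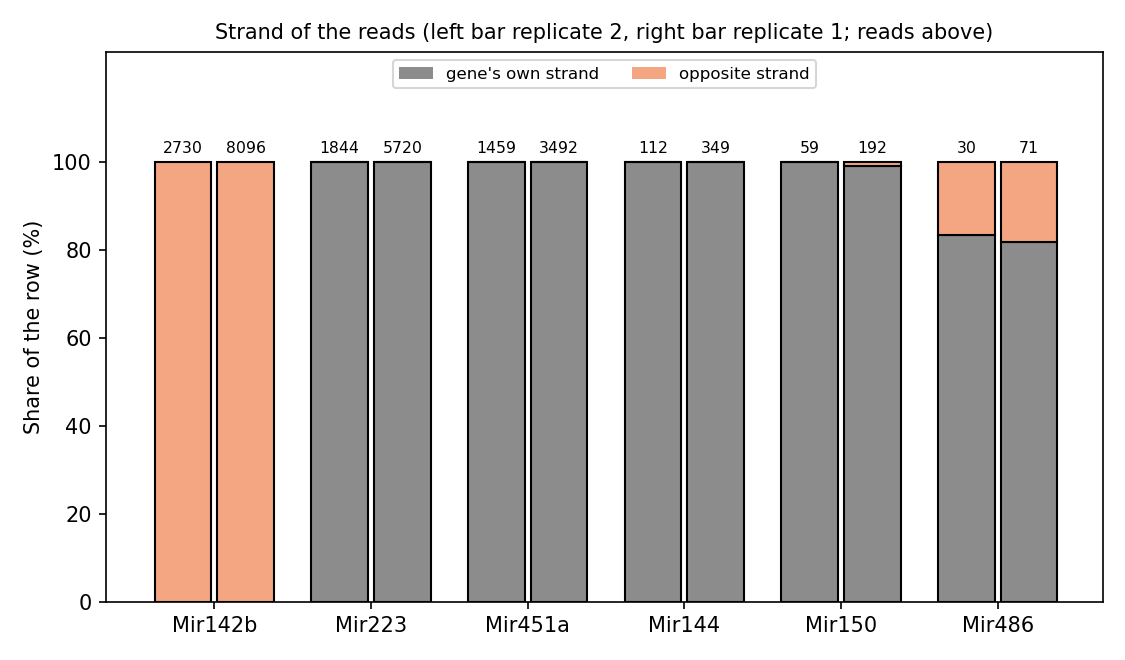
Share of each row's reads on the gene's own strand (grey) and on the opposite strand (orange), in %, for replicate 2 (left bar) and replicate 1 (right bar), with the number of reads above each bar. The Mir142b row is entirely on the opposite strand, and Mir486 is the only other member with a visible share there in both libraries.

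Mir223 (ENSMUSG00000076066.1; chromosome X, 96242817 to 96242926, plus strand, in an exon of the noncoding gene F630028O10Rik) restrains granulocyte production and activity in mice. It had 1844 reads or 472 CPM in replicate 2 (451 to 494 CPM) against 5720 reads or 379 CPM in replicate 1 (369 to 389 CPM). Its mean of 426 ± 66.0 CPM placed it at rank 136. Mir150 (ENSMUSG00000065495.1; chromosome 7, 45121757 to 45121821, plus strand, in no other annotated gene), known to act in B cell development through Myb, was low. It had 59 reads or 15.1 CPM in replicate 2 (11.7 to 19.5 CPM) against 190 reads or 12.6 CPM in replicate 1 (10.9 to 14.5 CPM). The lymphocyte-linked member was therefore far below the pan-leukocyte and myeloid ones in both libraries.

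The order of the levels was the same in both libraries, from the Mir142b row through Mir223, Mir451a, Mir144 and Mir150 to Mir486. The Mir142b row exceeded Mir223 by a log2 ratio of 0.57 in replicate 2 and 0.50 in replicate 1. Mir223 exceeded Mir451a by 0.34 in replicate 2 and 0.71 in replicate 1. Mir144 exceeded Mir150 by 0.92 in replicate 2 and 0.88 in replicate 1, and Mir150 exceeded Mir486 by 1.24 in replicate 2 and 1.71 in replicate 1. Each of the 5 steps had a mean larger than its own gap between the libraries. The closest step was between Mir223 and Mir451a, with a mean of 0.52 against a gap of 0.37, and there 379 CPM for Mir223 in replicate 1 stood beside 374 CPM for Mir451a in replicate 2. Within each library the exact counting interval of every step excluded a ratio of 1, which covers counting error only. No test of the order across libraries was run. The place of Mir486 rests on the reads assigned to it, and its level is uncertain.

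**Figure D3:**
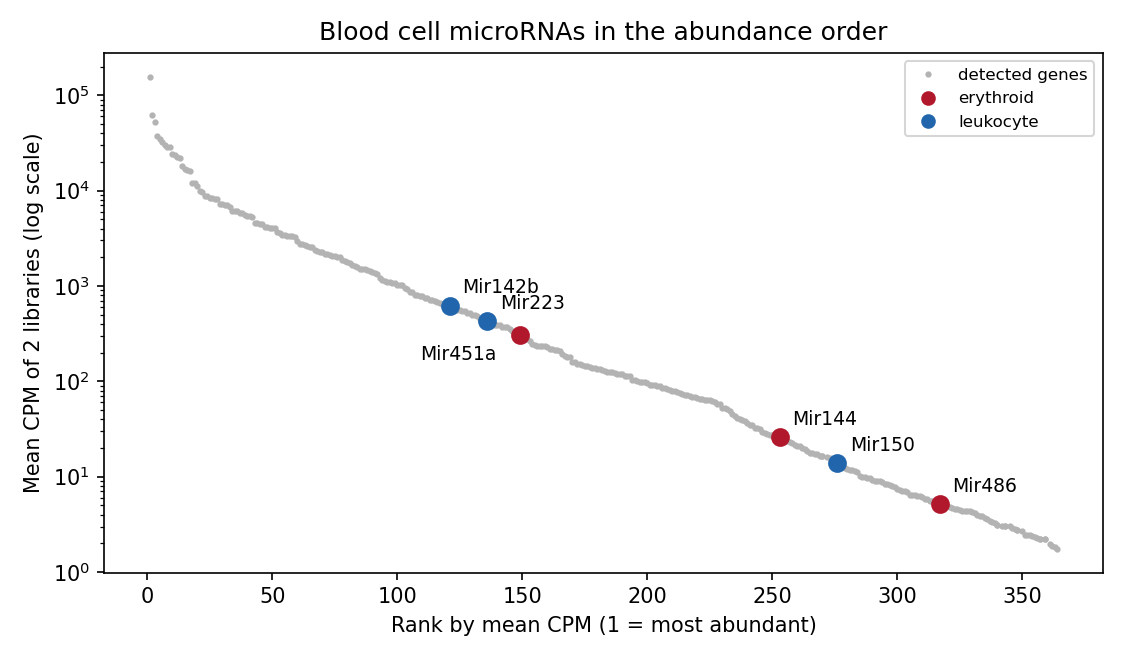
Mean CPM of the 2 libraries on a log scale against rank for the 364 detected genes (grey), with erythroid genes in red and leukocyte genes in blue. The members occupy ranks 121 to 317, 3 of them at ranks 121 to 149 and 3 at ranks 253 to 317.

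Neighbours in the abundance order help to place these values, beside a median of 131 CPM over the 364 detected genes. The Mir142b row lay between Mir125b-1 (623 ± 5.15 CPM) and Mir7b (596 ± 78.0 CPM), and Mir223 between Mir329 (437 ± 13.8 CPM) and Mir186 (415 ± 19.6 CPM). Mir451a lay between Mir501 (324 ± 56.8 CPM) and Mir196a-2 (292 ± 53.0 CPM), and Mir144 between Mir582 (26.0 ± 2.65 CPM) and Mir7-2 (25.7 ± 20.5 CPM). Of the members, 3 were therefore above that median and 3 below it. Mir150 stood between Mir184 (14.5 ± 0.204 CPM) and Mir3080 (13.7 ± 0.468 CPM), and Mir486 between Gm23134 (5.52 ± 1.25 CPM) and Mir3076 (5.06 ± 1.54 CPM).

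Of the members that differed between the libraries past the test, Mir451a did so most. All 6 members had a higher CPM in replicate 2, as did 226 of all 364 detected genes (62.1%), but only Mir451a, the Mir142b row and Mir223 passed a two-sided exact binomial test of their counts against the library totals, adjusted by Benjamini-Hochberg over all 364 detected genes. That is 3 of 6 members, all higher in replicate 2. Over all detected genes 44% passed, 29.9% being higher in replicate 2 and 14% lower. At these depths many genes pass, and the test compares these 2 libraries and no conditions. The median log2 difference, replicate 2 over replicate 1, was 0.35 for the members and 0.06 for all detected genes.

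Mir451a was 1.62-fold higher in replicate 2 (exact 95% counting interval 1.52 to 1.72, log2 0.69, adjusted p = 8.46e-49 by the exact binomial test). Among the 232 genes with a mean of at least 50 CPM, this was the third largest difference in size, after Mir802 and Mir375. Among all 364 detected genes, many of them with few reads, it was at rank 21. The Mir142b row was 1.30-fold higher (1.25 to 1.36, adjusted p = 1.07e-30 by the exact test) and Mir223 1.25-fold higher (1.18 to 1.31, adjusted p = 4.76e-15 by the exact test). The 3 less abundant members gave wide intervals. The log2 difference was 0.31 for Mir144 (-0.009 to 0.62, adjusted p = 0.102, exact test), 0.74 for Mir486 (-0.002 to 1.44, adjusted p = 0.0851, exact test) and 0.26 for Mir150 (-0.18 to 0.69, adjusted p = 0.361, exact test). Mir144, from the same transcript as Mir451a, thus had an interval that includes no difference. At its upper end it also overlaps narrowly with that of Mir451a (0.60 to 0.78). Overlap of intervals does not compare these differences, and whether they differ from each other was not tested.

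The genes of mean at least 50 CPM whose difference was nearest to that of Mir451a, over 2 libraries, were Mir5099 (log2 0.60), Mir194-1 (0.59) and Mir7-1 (0.52). Mir5099 had 110 CPM in replicate 2 against 72.5 CPM in replicate 1. Mir194-1, an intestinal epithelial microRNA whose mature sequence also comes from Mir194-2, had 936 CPM in replicate 2 against 620 CPM in replicate 1. Mir7-1, known from endocrine cells and sharing a mature sequence with Mir7-2, had 172 CPM in replicate 2 against 120 CPM in replicate 1. The split of reads between such copies is uncertain.

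**Figure D4:**
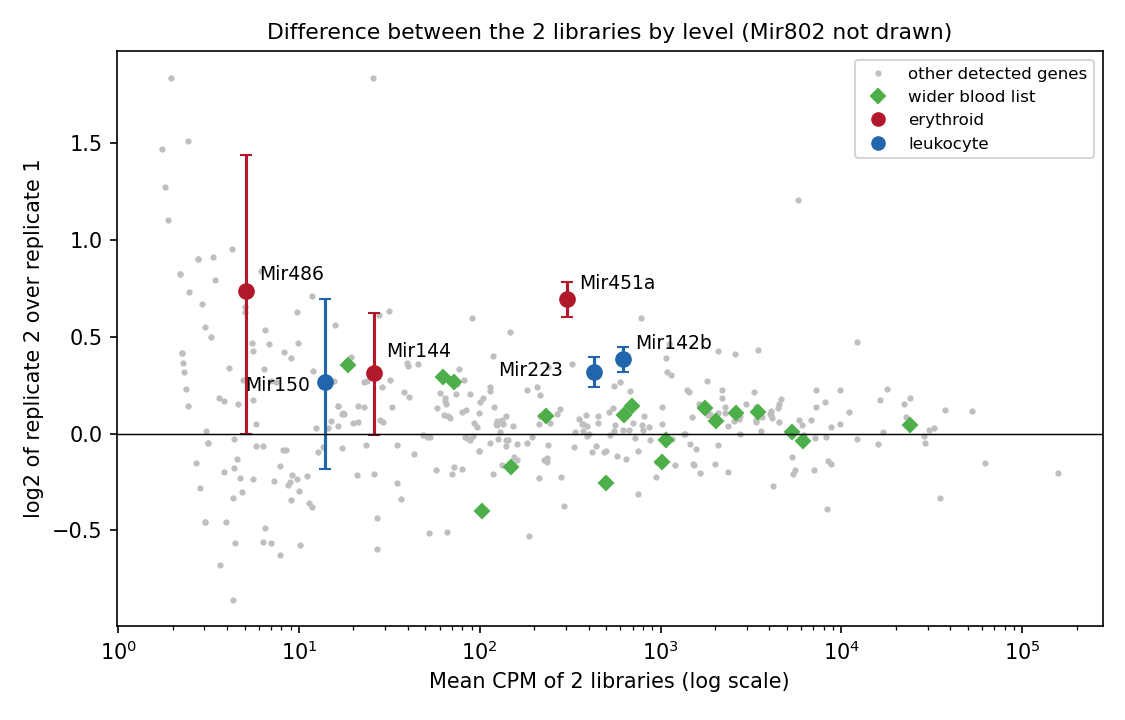
Log2 of replicate 2 over replicate 1 against mean CPM (log scale), with exact 95% counting intervals for the members (erythroid red, leukocyte blue), green diamonds for the wider blood list and grey points for other detected genes. Mir451a at 0.69 is the third largest in size among the 232 genes of at least 50 CPM and at rank 21 among all 364, and all 6 members lie above 0, as do 62.1% of all detected genes.

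Markers of other cell types also differed between the libraries. Intestinal epithelial genes (4 of 4 measured, with no gene at 0) summed to 11362 CPM in replicate 2 against 8980 CPM in replicate 1. The endocrine gene Mir375 had 8059 CPM in replicate 2 against 3497 CPM in replicate 1. Mir802, listed here under liver and pancreas, had 137 CPM in replicate 2 against 1.59 CPM in replicate 1. Whether reads of Mir802 came from those organs was not tested. These lists were higher in replicate 2, as the members were. The liver gene Mir122 had 51.0 CPM in replicate 2 against 39.8 CPM in replicate 1 (log2 0.36, adjusted p = 0.00817 by the exact test). Mir451a exceeded it 7.33-fold in replicate 2 and 5.81-fold in replicate 1. The fetal liver is the main site of blood formation at this age.

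The remaining lists did not share 1 direction. The endothelial gene Mir126a had 24174 CPM in replicate 2 against 23478 CPM in replicate 1 (log2 0.04), and exceeded Mir451a 64.7-fold in replicate 2 and 101-fold in replicate 1. Smooth muscle genes (2 of 2 measured) summed to 149642 CPM in replicate 2 against 171529 CPM in replicate 1. Mir143 made up 97.6% of these reads in replicate 2 and 97.9% in replicate 1. The other gene, Mir145a, had 3597 CPM in replicate 2 against 3567 CPM in replicate 1 (log2 0.01). Neuronal genes (5 of 6 measured) summed to 7.69 CPM in replicate 2 against 5.37 CPM in replicate 1. Their log2 difference of 0.52 rests on 30 reads in replicate 2 and 81 in replicate 1, and Mir9-3 held 30 and 80 of these. Mir124a-2, Mir124a-3 and Mir9-2 had 0 reads in both. Multiply aligned reads entered no gene, so a count of 0 does not show absence. Whether such reads came from these genes was not tested. The part of any of these lists in the difference of Mir451a was not tested.

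A wider list of microRNAs with roles in blood cells, most of them broadly expressed, was far more abundant than the 6 members. Of its 20 genes 19 were measured and 18 detected. It held 5.03% of the counts in replicate 2 and 4.92% in replicate 1. Mir126a, the endothelial gene given above, made up 48.0% of the list's reads in replicate 2 and 47.8% in replicate 1. Without it the list held 2.61% in replicate 2 and 2.57% in replicate 1. Of the 18, 9 were higher and 5 lower in replicate 2 past the same test, with a median log2 difference of 0.08. Over all detected genes 29.9% were higher and 14% lower, with a median of 0.06. Copies of the miR-16, miR-24, miR-92 and miR-181 genes elsewhere in the genome make their separate levels uncertain. The most abundant genes of the list were Mir126a, Mir181c, Mir181d, Mir92-1, Mir15a and Mir16-1. Mir181c had 6063 CPM in replicate 2 against 6232 CPM in replicate 1. Mir15a, which restrains the cell cycle, had 2707 CPM in replicate 2 against 2513 CPM in replicate 1.

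The list also holds Mir155 and Mir146, named here after their values were seen because both are induced in activated leukocytes. They do not stand for the list, in which 9 genes were higher and 5 lower in replicate 2 past the test. Among the lower ones were Mir181a-2 (log2 -0.40) and Mir221 (log2 -0.26). Mir146b, with 7 reads in replicate 2 and 3 in replicate 1, was not detected. Mir155 had 69.2 CPM in replicate 2 against 56.5 CPM in replicate 1 (log2 0.29, adjusted p = 0.0120 by the exact test). Mir146 had 78.1 CPM in replicate 2 against 65.1 CPM in replicate 1 (log2 0.26, adjusted p = 0.0154 by the exact test). Both were well below the Mir142b row, which exceeded Mir155 10.1-fold in replicate 2 and 9.49-fold in replicate 1.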

How the data were processed

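Per the deposited files' notes, mm10 was the build of the alignments and GENCODE M4 the annotation; the aligner, trimming and counter are not given in the sources used here. The authors deposited whole-number counts per gene, unnormalized, in a column for both strands together and 1 for each strand (first the gene's own); this reading rests on the values. Reads unaligned (13.8% in replicate 2 and 12.4% in replicate 1), multiply aligned or on no gene (2.10% in replicate 2 and 2.20% in replicate 1) entered no total. No molecular identifiers are recorded.

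Symbols and positions are from GENCODE M21 (GRCm38, the assembly of mm10), which matched 1894 of 1973 identifiers and all 6 members. CPM, exact binomial tests and intervals were computed with Python 3.11.15 and scipy 1.17.1, checked on simulated counts. The simulation held counting error and set differences but no variation between embryos, so the check does not cover such variation. From edgeR 4.0.16 came TMM factors only, since 1 group with 2 libraries allows no quasi-likelihood test. The labels call the libraries biological replicates; p-values reflect counting error only. The genes named are the members, their overlapping and seed-sharing genes, neighbours in level and in difference, and fixed lists. Members and lists were chosen with earlier results of these data known. Alternatives changed the denominator, strand, scaling, count minimum, depth and replicates.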

Additional observations from a re-analysis of the deposited data

Results flagged for a closer look

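Mir486 had reads on its opposite strand, where Mir3107 is annotated, that entered no level above: 5 in replicate 2 and 13 in replicate 1, more than the 3 counts that a count of 0 allows.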

How the results depend on the processing

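Of 74 recomputed values 65 were judged unchanged and 9 moved. A value was unchanged if it kept its direction and stayed within the spread between the libraries or on its side of the threshold. For the number of members passing the test a limited change was allowed. Its fall from 3 to 2 on the annotated strand only, where Mir142b could not be tested, is therefore among the 65. The 65 include the values of each library alone, which cannot leave a spread that the same libraries define, so they test nothing. The ratio of Mir451a over Mir144 on both strands could not change either, because neither gene had a read on its opposite strand. The 65 therefore overstate how much was checked. Over all reads in the table, the erythroid share was 0.0188%, the leukocyte share 0.0596% and the summed share 0.0784%. Without Mir143, the most abundant gene, in the total, the leukocyte share was 0.125%. With the annotated strand only, the leukocyte share was 0.0440%, the summed share 0.0773% and the erythroid to leukocyte log2 ratio -0.43. That ratio was -3.83 without Mir451a and Mir142b. Without Mir142b, the opposite-strand share of the members was 0.148%, against 44.6% with it. None reversed.

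In the main setting 3 of 6 members and 160 of 364 genes passed the test. The same 3 of 6 members passed under TMM scaling (143 of 364 genes) and median-of-ratios scaling (146 of 364). They also passed with no count minimum (153 of 769 genes), 10 summed counts (161 of 513) and replicate 1 thinned (131 of 349). On the annotated strand only, 2 of 5 members and 159 of 363 genes passed. The numbers of genes tested differ, so the numbers passing are not directly comparable. The log2 difference of Mir451a ranged from 0.60 to 0.72. Single libraries gave ranges equal to the values above. Leaving out Mir486, chosen after the data were seen, left the shares and the ratio within the spread. Mir486 held 25 of 1596 erythroid reads in replicate 2 and 58 of 3899 in replicate 1, so this step could hardly move them. It does not bear on reads of Mir486 that may have been lost to multiple alignment. No member was left out for a mature sequence with several matches, because none with a sequence to check in the microRNA table met that condition; Mir486 could not be checked, and of Mir150 only miR-150-3p was, against no hairpin of its own. No paired analysis was possible because the series has 1 group. Mir144, Mir150 and Mir486 are limited by their counts.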
